A study of Brassica napus with 15 samples.

Results

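Dry rapeseed held RNA of 291 genes whose level was at most 50% of that of dry seed by 12 hai in all 3 accessions studied and at most 25% of it later. These genes were selected on their values: in C129, in C033 and also in C032 the TPM (a transcript's abundance on a scale with the same total in each library) in dry seed was at least 10, the TPM at 12 hai (hours after imbibition) was at most 50% of the dry level, and the TPM at 36 and at 72 hai was each at most 25% of it. They are 291 of 8806 coding genes with at least 10 TPM in the dry seed of each accession, called stored genes here, and of 101040 coding genes of *Brassica napus* in all. Seeds of C129, the fastest of the 3 to germinate, of C033 and of C032, the slowest, came from self-pollinated plants of a field trial and were imbibed in distilled water at 20 °C in the dark. They were sampled at 0, 2, 12, 36 and 72 hai. No treatment, mutation or transgene separated the groups. Each of the 15 libraries held the pooled RNA of 3 biological replicates of 30 seeds, so each accession and time point had 1 library and no replicate error, and the p-values below measure the spread between these pooled samples. Whole seeds and seedlings were extracted, so that fewer cells of a type and less RNA per cell cannot be told apart. TPM is a share of the RNA in a library, so that loss of a transcript and its dilution by new RNA cannot be told apart either.

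A seed that dries on the mother plant keeps messenger RNA made during late maturation. This stored RNA includes transcripts for LEA proteins, which protect cells in the dry state, for oleosins, which coat the oil bodies of the embryo, and for small heat shock proteins, chaperones that hold unfolded proteins. After water uptake part of the stored RNA is translated and part is broken down, while genes of growth and later of photosynthesis are switched on.

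Arabidopsis matches were at hand for only 10 of the 291 genes, and the study names 1 more by its locus, BnaC02g04180D for the small heat shock protein HSP17.6. The other 280 are given by their locus name, which carries the subgenome (A or C) and the chromosome ("nn" where the chromosome is not placed). BnaC02g04180D is the only one of them covered by a pair of primers that the study designed for quantitative PCR, and the pair is shown because it defines which HSP17.6 copies are measured together. It was made for the loci BnaC03g05240D, BnaC02g04180D and BnaA03g03740D, of which only BnaC02g04180D is among the 291. The primers are printed 5′ to 3′ in lower case, with no base set apart.
BnaHSP17.6-F: aatcctcgaagacatgctaga
BnaHSP17.6-R: ccaggcatgtccaccacgaa

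The level was near that of dry seed at 2 hai, well below it at 12 hai and lowest at 36 and 72 hai. In C129 the median share of the dry level left at 2, 12, 36 and 72 hai was 99.8, 17.62, 1.74 and 2.65%. In C033 it was 93.0, 25.8, 1.30 and 1.55%, and C032 kept 99.4, 38.8, 2.47 and 1.26%. The values at 12, 36 and 72 hai are those the genes were selected on and describe them only. The 291 genes together made up 8.10, 9.07 and 10.9% of the coding TPM in dry seeds of C129, C033 and C032. In the same order they made up 1.30, 2.57 and 3.91% at 12 hai and 0.117, 0.130 and 0.247% at 36 hai. The other stored genes were left at a median of 108, 92.2 and 122% of their dry level at 12 hai. These shares depend on the scaling between libraries. With median-of-ratios factors, which ranged between 0.714 and 1.52, the other stored genes were at a median of 68.6, 73.9 and 77.5% at 12 hai and the 291 genes at 11.2, 20.7 and 24.6%.

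**Figure D1:**
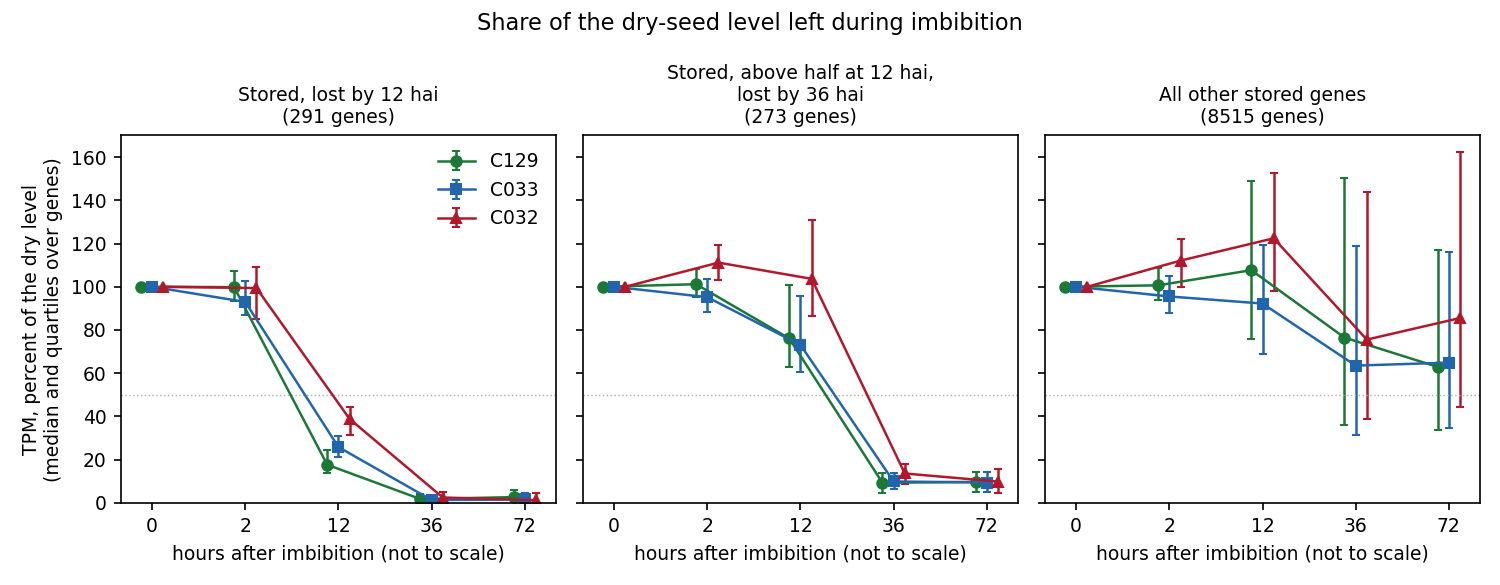
Share of the dry level (TPM in percent of the TPM at 0 hai, median and quartiles over genes) at 0, 2, 12, 36 and 72 hai in C129, C033 and C032, for the 291 genes lost by 12 hai, for 273 stored genes that were above 50% at 12 hai and at most 25% at 36 and 72 hai in each accession, and for the 8515 other stored genes, which include those 273. The 291 genes are near 100% at 2 hai and separate by accession at 12 hai, with medians of 17.62, 25.8 and 38.8% for C129, C033 and C032.

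The genes stood high among the stored RNA. Their mean level in dry seed over the 3 accessions had a median of 68.3 TPM, between 12.5 and 3220.0 TPM, against a median of 25.4 TPM for all stored genes. They were 13 of the 60 stored genes with a mean of at least 1000 TPM (21.7%) and 50 of the 176 between 300 and 1000 TPM (28.4%), but 75 of the 5181 below 30 TPM (1.45%). These shares are a description, since the rule itself uses the dry level.

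BnaC01g26830D on chromosome C01 was the highest of them. It had 2933, 2571, 441, 16.1 and 12.4 TPM at 0, 2, 12, 36 and 72 hai in C129, 3057, 2754, 797, 20.0 and 10.6 TPM in C033 and 3669, 3479, 1659, 44.7 and 8.53 TPM in C032. The dry seeds of the 3 accessions were within 1.25-fold of each other, and the 12 hai value was lowest in C129 and highest in C032. BnaA10g24180D had 2830.0, 2764, 624, 59.8 and 61.0 TPM in C129, 3496, 3597, 944, 41.2 and 38.6 TPM in C033 and 3043, 2704, 1472, 84.0 and 36.6 TPM in C032. BnaA01g21430D had 1872, 1654, 264, 7.82 and 6.17 TPM in C129, 2029, 1984, 467, 8.32 and 4.78 TPM in C033 and 2595, 2586, 1054, 34.9 and 5.52 TPM in C032. Both showed the same order of the accessions at 12 hai. The next in level were BnaC05g35990D, BnaAnng35040D, BnaC08g27300D, BnaCnng32920D, BnaA05g23860D, BnaA01g28600D, BnaC01g35900D, BnaCnng77870D and BnaAnng12230D. Most of these 12 genes differed between accessions by no more than 2.29-fold in dry seed. The exception was BnaC01g35900D, which is described with the accessions below. No annotation of the 12 was at hand.

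**Figure D2:**
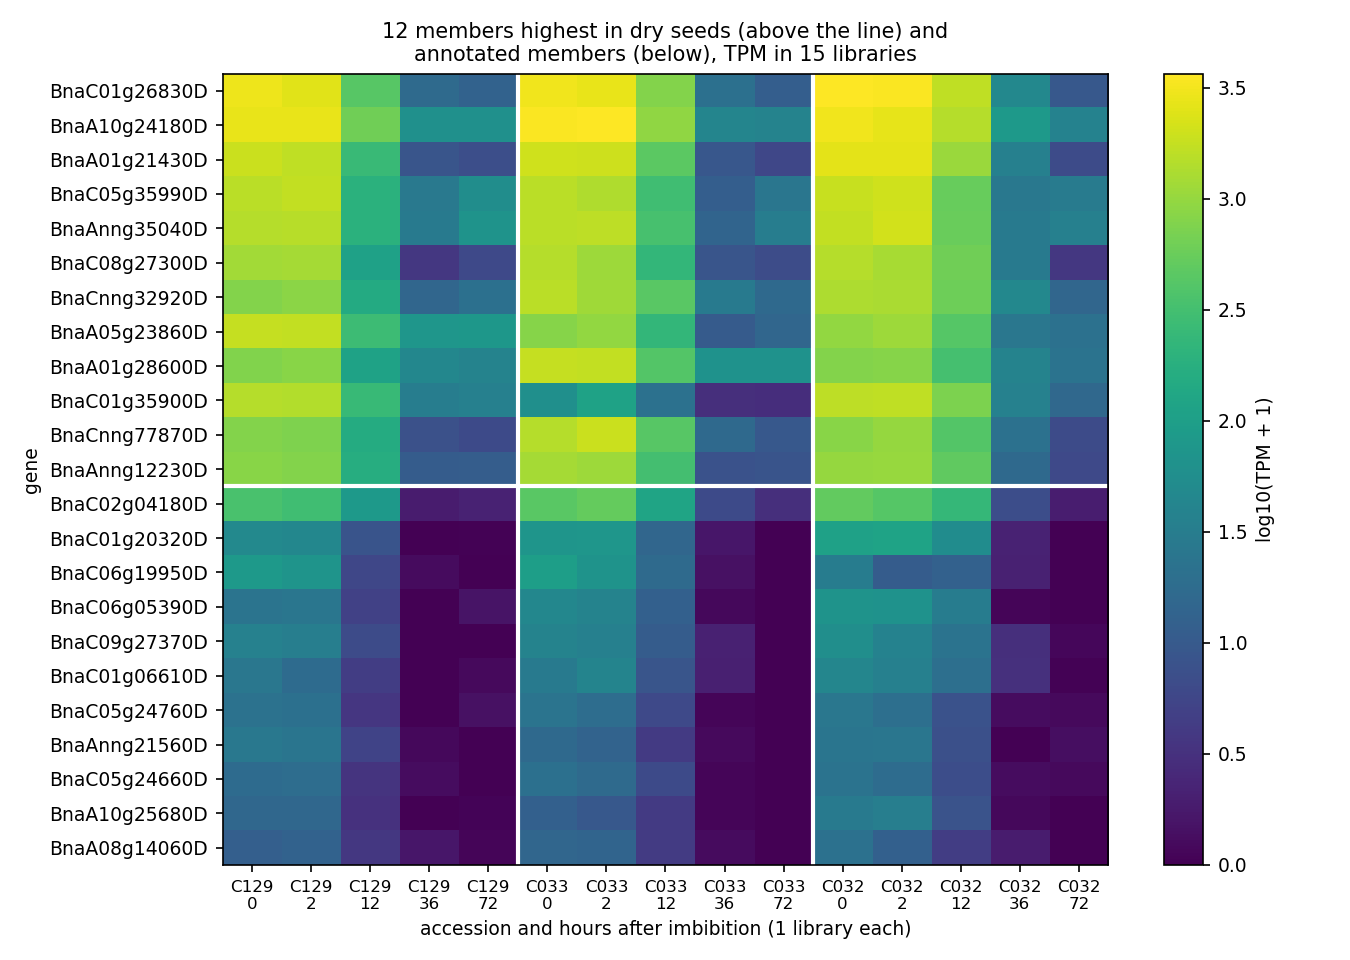
Level as log10(TPM + 1), in colour, of the 12 genes highest in dry seed (above the white line) and of the 11 annotated genes (below it) in each of the 15 libraries, ordered by accession and hours after imbibition. Each gene is darker at 36 and 72 hai than at 0 hai in its own accession, and BnaC01g35900D is dim in the dry seed of C033, at 58.4 TPM.

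Small heat shock proteins, LEA proteins and an oleosin were among the annotated genes. Of 5 genes matched to the list of small heat shock proteins, 2 were stored genes and both were among the 291. BnaC01g20320D matches Arabidopsis HSP21, the chloroplast small heat shock protein. It had 47.0, 43.7, 7.51, 0 and 0.0379 TPM at 0, 2, 12, 36 and 72 hai in C129, 71.9, 72.8, 13.8, 0.668 and 0 TPM in C033 and 107, 114, 52.4, 1.2004 and 0 TPM in C032. BnaC06g05390D matches HSP26.5, another organelle-type small heat shock protein of Arabidopsis. It had 22.7, 24.01, 3.94, 0 and 0.525 TPM in C129, 43.2, 37.8, 11.3, 0.205 and 0 TPM in C033 and 66.5, 64.4, 30.8, 0.119 and 0 TPM in C032. Both genes were lowest in C129 and highest in C032 at 0, 2 and 12 hai.

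The HSP17.6 copies showed the same course over time at other levels. BnaC02g04180D had 343, 298, 81.8, 0.840 and 1.17 TPM in C129, 447, 526, 121, 5.27 and 1.99 TPM in C033 and 516, 419, 239, 5.95 and 0.920 TPM in C032. BnaA03g03740D had 263, 225, 56.4, 0.577 and 0.333 TPM in C129, 357, 363, 112, 3.42 and 2.39 TPM in C033 and 809, 674, 436, 9.02 and 2.18 TPM in C032. It missed the rule because 53.9% of its dry level was left at 12 hai in C032. BnaC03g05240D had 186, 169.8, 33.6, 0.335 and 0.510 TPM in C129, 211, 198, 66.3, 2.33 and 0 TPM in C033, but only 9.58, 10.9, 4.78, 0 and 0 TPM in C032, and so missed the dry minimum of 10 TPM there. In C032 the A03 copy was the highest of the 3 in dry seed and the C03 copy the lowest. Reads of near-identical copies may be shared between them, so the split is uncertain.

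Of 5 genes matched to oil body proteins, 4 were stored genes and 1 was among the 291. That gene, BnaC09g27370D, matches the Arabidopsis oleosin OLEO3 and had 36.3, 32.4, 5.52, 0 and 0 TPM at 0, 2, 12, 36 and 72 hai in C129, 38.2, 34.6, 9.79, 1.13 and 0 TPM in C033 and 56.5, 37.2, 22.1, 2.01 and 0.157 TPM in C032. The other 3 were low by 12 hai in the faster accessions only. BnaA07g14960D, which matches OLEO2, was left at 23.3% in C129, 34.0% in C033 and 61.2% in C032 at 12 hai. BnaA03g34830D, which matches a further oleosin, was left at 18.3, 29.5 and 63.7%, and BnaC08g12280D, which matches a caleosin, a calcium-binding oil body protein, at 14.8, 39.6 and 66.7%. All 3 missed the rule through C032 at 12 hai and were under 2 TPM in each accession from 36 hai on.

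Of 3 genes matched to LEA proteins and dehydrins, both stored ones were among the 291. BnaC05g24760D and BnaC05g24660D match the same Arabidopsis gene, LEA4-1, are each 623 bases long with 2 exons, and may share reads. BnaC05g24760D had 21.0, 20.0, 2.67, 0 and 0.440 TPM in C129, 22.9, 18.0, 5.06, 0.101 and 0 TPM in C033 and 24.6, 19.0, 6.97, 0.333 and 0.220 TPM in C032. Its copy BnaC05g24660D differed little, with 16.8 TPM in C129, 19.7 TPM in C033 and 21.9 TPM in C032 in dry seed. The remaining annotated genes were BnaC06g19950D (matched to a seed maturation protein of Arabidopsis), BnaAnng21560D (MBD7, a protein that binds methylated DNA), BnaA10g25680D (a glycosyltransferase), BnaC01g06610D and BnaA08g14060D (no role given). BnaC06g19950D had 80.3, 67.9, 4.77, 0.292 and 0 TPM in C129, 97.7, 66.5, 16.3, 0.454 and 0 TPM in C033 and 30.1, 10.1, 12.0, 1.15 and 0 TPM in C032. It was one of the few genes already low at 2 hai in one accession.

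No gene of several other lists met the rule. Of the 5 genes matched to seed storage proteins, the 8 of abscisic acid, the 2 of protection and repair and the 4 green seedling markers, none was a stored gene, and of the 4 of gibberellin 1 was stored and none met the rule. None of the 15 genes on the list of heat shock factors and other chaperones had a match at hand. The matches come from a part of a table of genes that the study called changed, so these counts say nothing of how often such genes are lost. Most of the other stored genes that the study names by locus were above their dry level at 12 hai. Among them were both copies of ABI3, which directs seed maturation in Arabidopsis: BnaA03g37510D stood at 286, 181 and 273% in C129, C033 and C032, and BnaC03g44820D at 292, 204 and 314%. The RGL2 copies, for a repressor of gibberellin responses, stood between 299.5 and 624% of their dry level at 12 hai. GID1a (BnaC05g46680D), for a gibberellin receptor, stood at 152, 174 and 341% and KO1 (BnaC07g28980D) at 150, 116 and 131%, while NF-YC9 (BnaA09g48620D) stood at 143, 69.2 and 135%, below its dry level in C033.

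The labelled tissue fitted its markers in part. The 4 green seedling markers had between 0 and 1.98 TPM in dry seed. One of them, BnaC03g50210D, which matches the photosystem gene PSAN, was at 0 TPM in dry seed and at 24.4, 21.4 and 19.6 TPM at 72 hai in C129, C033 and C032. At 72 hai BnaA09g08030D was at 29.8, 30.5 and 23.5 TPM and BnaC09g30700D at 10.5, 24.8 and 6.45 TPM in the same order. BnaC02g44590D stayed low, at 1.31, 1.58 and 1.63 TPM. Of the dry seed markers, the 5 matched oil body genes had between 0 and 81.3 TPM at 0 hai, with BnaC09g27030D at 0 TPM in each accession, and the 5 matched storage protein genes between 0 and 38.6 TPM.

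At 2 hai nearly all of the 291 genes were close to their dry level. The comparison shares its 0 hai libraries with the rule and is given without a test. No gene was at or below 50% of its dry level in all 3 accessions (background 0% of stored genes), and 283 of 291 (97.3%) stayed within 2-fold of it in each, as did 98.3% of all stored genes. In all 3 accessions 65 genes (22.3%) were below their dry level, against 6.87% of the stored genes, and 22 (7.56%) were above it, against 11.1%. Counted in 1 accession at a time, the level was below that of dry seed for 146, 200 and 153 of the 291 genes in C129, C033 and C032, and for 4183, 5594 and 2300 of the 8806 stored genes. These counts were made on the deposited TPM only and depend on the scaling. The stored genes had medians of 101, 95.5 and 112% of their dry level on TPM, in the same order. With median-of-ratios factors they had 95.0, 98.1 and 102%, and the 291 genes 94.2, 95.5 and 90.5%. The 8 genes that had at most 50% left in at least 1 accession included the 4 that stood lowest by the mean of the log2 ratios. BnaC01g31100D had 24.7, 0, 0, 0 and 0 TPM at 0, 2, 12, 36 and 72 hai in C129, 20.6, 10.6, 0, 0 and 0 TPM in C033 and 22.6, 11.6, 0, 0 and 0 TPM in C032, and was the only one at 0 TPM by 2 hai in any accession. BnaCnng38610D had 27.6% of its dry level left at 2 hai in C033 and 39.2% in C032, but 121% in C129. BnaA09g50440D was low in C032 alone, at 19.5%, and BnaC06g19950D likewise, at 33.4%. The genes that stood highest at 2 hai by the mean of the log2 ratios were BnaC01g35900D, BnaA10g10370D, BnaA02g17250D and BnaC02g02300D, at 0.30, 0.26, 0.25 and 0.23. BnaC01g35900D was above its dry level mainly in C033, where it had 111 TPM at 2 hai and 58.4 TPM in dry seed.

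At 12 hai the share left was ordered by accession in most genes. It was lowest in C129, intermediate in C033 and highest in C032 for 235 of the 291 genes (80.8%), against 23.7% of the stored genes. For C129 the quartiles of the share left were 13.7 and 24.7% around its median of 17.62%, for C033 they were 21.1 and 30.8% around 25.8%, and for C032 31.6 and 44.4% around 38.8%. The shares left at 12 hai are values that the genes were selected on, so the contrast with the stored genes describes the chosen genes only. This is also the order of the accessions by speed of germination, but it rests on 1 library each and has no test. It held for fewer genes under other scalings, 198 (68.0%) with median-of-ratios factors and 202 (69.4%) when coding genes were rescaled to 1 total, while the share of the other stored genes was larger, at 35.4 and 31.1%, than the 21.8% on the deposited TPM. Among the 273 stored genes lost only after 12 hai it held for 37.4, 53.5 and 48.4% under the deposited TPM, the median-of-ratios factors and the rescaled coding genes.

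**Figure D3:**
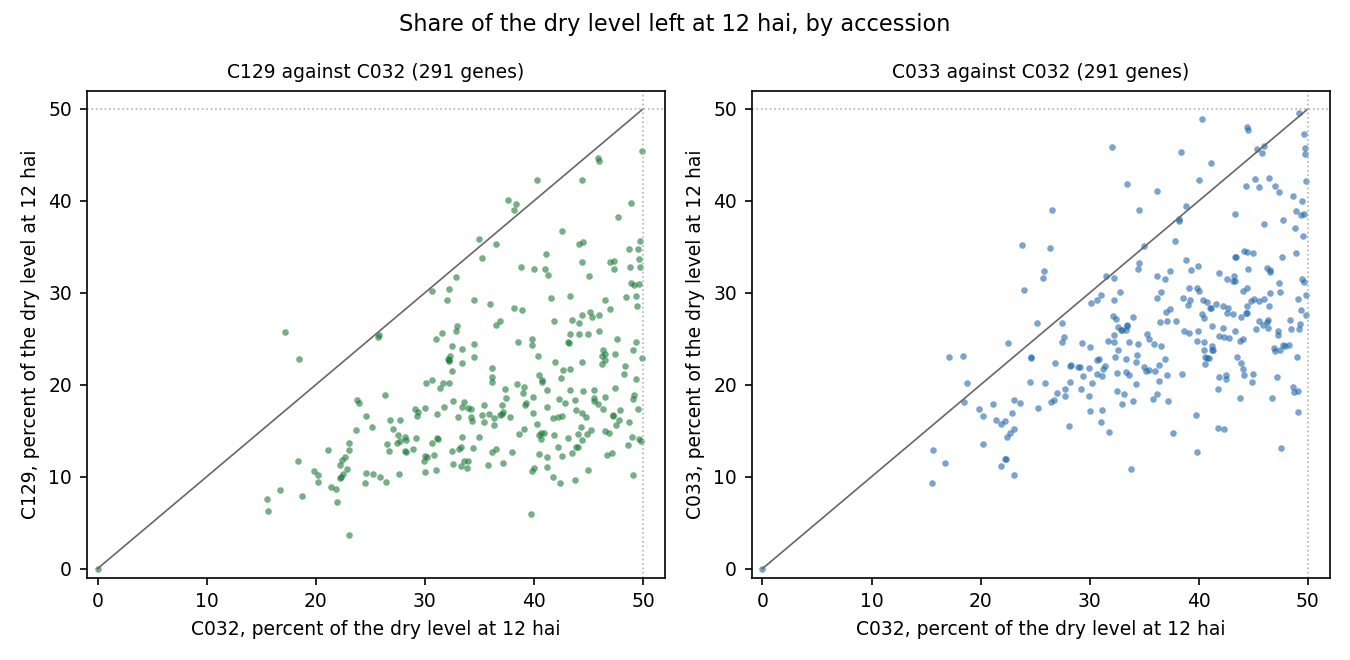
Share of the dry level left at 12 hai, in percent, for each of the 291 genes, in C129 against C032 (left) and in C033 against C032 (right), with the line of equal shares and, dotted, the 50% limit of the rule. Most points lie below the line and many crowd toward the limit in C032, where the median is 38.8%, against 17.62% in C129 and 25.8% in C033.

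C032 at 12 hai was also the limit that decided membership. It was the nearest limit for 232 of the 291 genes, and 346 stored genes missed the rule only there, against at most 7 for any other single limit. Just inside the rule were BnaA08g23680D and BnaA09g20200D, each with 49.9% left in C032 at 12 hai, and BnaA06g08760D, with 8.70 TPM at 72 hai and 34.8 TPM in dry seed in C032. Just outside were BnaAnng40060D, BnaC05g11760D and BnaA06g21930D, with 50.02, 50.03 and 50.2% left in C032 at 12 hai. Genes on either side of the limit of C032 at 12 hai thus differed little in that share. They differed in other values, with 45.4% left in C129 at 12 hai for BnaA09g20200D and 20.9% for BnaAnng40060D.

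Genes that were lost furthest in one accession tended to be lost furthest in the others. These are values that the rule limits to 50%, across 291 genes that share their libraries and are not independent. Across them Spearman's rho of the share left at 12 hai was 0.72 between C129 and C033, 0.45 between C129 and C032 and 0.50 between C033 and C032. Between gene length and the share left rho was 0.29 in C129 and 0.37 in C033, with a rho of 0.10 in C032.

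The genes were shorter than other stored genes and had fewer exons, but were near the values of all coding genes. Their median length was 936 bases, against 1482.5 bases for all stored genes and 1006 bases for all coding genes, and their median exon number was 3, against 5 and 3. Single-exon genes made up 54 of 291 (18.6%), against 9.66% of the stored genes and 18.5% of all coding genes. The 273 stored genes lost only after 12 hai had a median length of 1470.0 bases and 5 exons. Both subgenomes contributed alike, with 145 genes on A and 146 on C chromosomes. By chromosome between 1.79% of the stored genes (C07, 7 genes) and 5.38% (A10, 19 genes) belonged to them. No gene of the 291 overlapped another coding gene of the table.

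Some of the 291 lay side by side or were near copies. There were 7 pairs of direct neighbours, 6 of them on the same strand, separated by 48 to 178 bases. One pair on chromosome C02, BnaC02g02300D (bases 497657 to 498321 of its scaffold in the assembly AST_PRJEB5043_v1) and BnaC02g02310D (498413 to 499431, same scaffold), lies 91 bases apart on the minus strand. A second pair there, BnaC02g36700D and BnaC02g36690D, has the same gap of 91 bases. BnaC02g02300D had 79.2, 90.4, 20.4, 1.01 and 5.71 TPM in C129, 68.6, 89.3, 20.6, 0.347 and 5.84 TPM in C033 and 106, 115, 34.6, 2.97 and 11.2 TPM in C032. BnaC02g36700D was close to it in every library, with 80.2, 85.9, 18.1, 0.982 and 5.45 TPM in C129, 69.3, 87.8, 20.3, 0.511 and 5.22 TPM in C033 and 101, 111, 32.4, 2.45 and 10.2 TPM in C032. Whether the 2 pairs are separate sources of RNA, and whether close neighbours are parts of 1 transcript, was not tested. A further 11 pairs had the same length and number of exons, among them BnaA01g05030D and BnaC01g06610D, and reads may be split between such genes.

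After the loss, some genes came back in part by 72 hai. The rule sets the same upper limit at 72 and at 36 hai and does not use the difference between them, which was tested with limma over 53233 coding genes on log2(TPM + 1), with the 3 accessions as replicates and accession as a second term. At an adjusted p (Benjamini-Hochberg) under 0.05 and a log2 difference beyond 1, 28 of the 291 genes (9.62%) rose, against 17.1% of all genes tested, and 15 (5.15%) fell, against 4.82%. The rule leaves out genes above 25% of their dry level at 72 hai, among them 20 stored genes that met it up to 36 hai and were above it at 72 hai in each accession, so the share of rises is in part set by the choice of genes and nothing is read from it. The called genes were among 102 with an unadjusted p under 0.05, a count not made over all genes tested. The median log2 difference was -0.07 over the 291 genes and 0.21 over all genes tested. All 28 risen genes were higher at 72 than at 36 hai in 3 of 3 accessions. They reached between 2.71 and 24.96% of their dry level at 72 hai, below the 25% that the rule allows. Of the 15 fallen genes, 14 were lower in 3 of 3 accessions, and their median dry level was 745 TPM, against 81.2 TPM for the risen genes. The balance of the calls depended on scaling. With median-of-ratios factors, which lowered the median over all genes to 0.06, 20 rose and 23 fell, against 7023 and 3545 of 52506 genes tested. With coding genes rescaled 21 rose and 25 fell, against 7071 and 3702 of 52836. The count of falls rested on single accessions, with 37 without C129, 7 without C033 and 3 without C032. Over all genes tested the falls were 2024 of 47596, 2521 of 50104 and 3026 of 49152 in the same order. Adding 5 TPM in place of 1 left 3 rises and 1 fall, against 3382 and 1212 of 53233 genes tested.

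BnaC09g49920D, a single-exon gene of 1638 bases, had the largest rise. It had 48.3 TPM in C129, 38.8 TPM in C033 and 66.4 TPM in C032 at 72 hai, against 5.11, 4.498 and 13.7 TPM at 36 hai, and in dry seed 344, 281 and 318 TPM. The log2 difference was 2.69 ± 0.24 (SE, limma, adjusted p = 7.6e-07), and the 2 times did not overlap. BnaA06g04460D, a single-exon gene of 423 bases, had 76.0, 51.5 and 83.2 TPM at 72 hai and 15.3, 7.15 and 16.4 TPM at 36 hai in C129, C033 and C032, a log2 difference of 2.40 ± 0.33 (SE, limma, adjusted p = 5.0e-05). Both calls held under each setting tried. The neighbours BnaC02g02310D and BnaC02g02300D rose together, with log2 differences of 2.14 and 1.90 (limma, adjusted p = 7.0e-06 and 2.5e-06), and BnaC02g36700D rose by 1.81 (limma, adjusted p = 1.2e-06). BnaC02g02310D had 5.22 TPM in C129, 4.97 TPM in C033 and 6.49 TPM in C032 at 72 hai, against 0, 0 and 2.26 TPM at 36 hai. These 3 fell short of a log2 difference of 1 when 5 TPM was added.

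The called falls were largely of genes with much RNA in dry seed, which is in part set by the scale. On log2(TPM + 1) a fall beyond 1 needs on average more than 1 TPM at 36 hai. Members with a mean of 10 to 30 TPM in dry seed had medians of 0.590, 0.420 and 0.944 TPM at 36 hai in C129, C033 and C032. Those of at least 1000 TPM had 16.1, 10.6 and 27.6 TPM. With 0.1 TPM added in place of 1, 38 genes fell, against 3495 of 53233 genes tested. BnaA05g36250D had 0.255 TPM in C129, 2.37 TPM in C033 and 2.06 TPM in C032 at 72 hai, against 0.498, 14.9 and 24.7 TPM at 36 hai, and a log2 difference of -1.85 ± 0.46 (SE, limma, adjusted p = 0.0062). BnaC09g44630D had 0.117, 0.989 and 1.04 TPM at 72 hai and 2.20, 6.45 and 6.90 TPM at 36 hai in C129, C033 and C032, and a log2 difference of -1.79 ± 0.30 (SE, limma, adjusted p = 0.00027). BnaC06g09330D had 3.43, 5.59 and 4.48 TPM at 72 hai and 3.78, 21.2 and 56.3 TPM at 36 hai, and a log2 difference of -1.75 ± 0.55 (SE, limma, adjusted p = 0.023). In C129 both BnaA05g36250D and BnaC06g09330D were already low at 36 hai, and the larger differences were those of C033 and C032. BnaCnng34690D and BnaC03g68950D fell by 1.57 and 1.43 on the log2 scale (limma, adjusted p = 0.0012 and 0.023). Without C033 the calls of BnaA05g36250D, BnaC06g09330D and BnaC03g68950D were lost (adjusted p = 0.16, 0.18 and 0.23), and without C032 as well (0.086, 0.33 and 0.11). None of the 11 annotated genes was called between 72 and 36 hai.

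**Figure D4:**
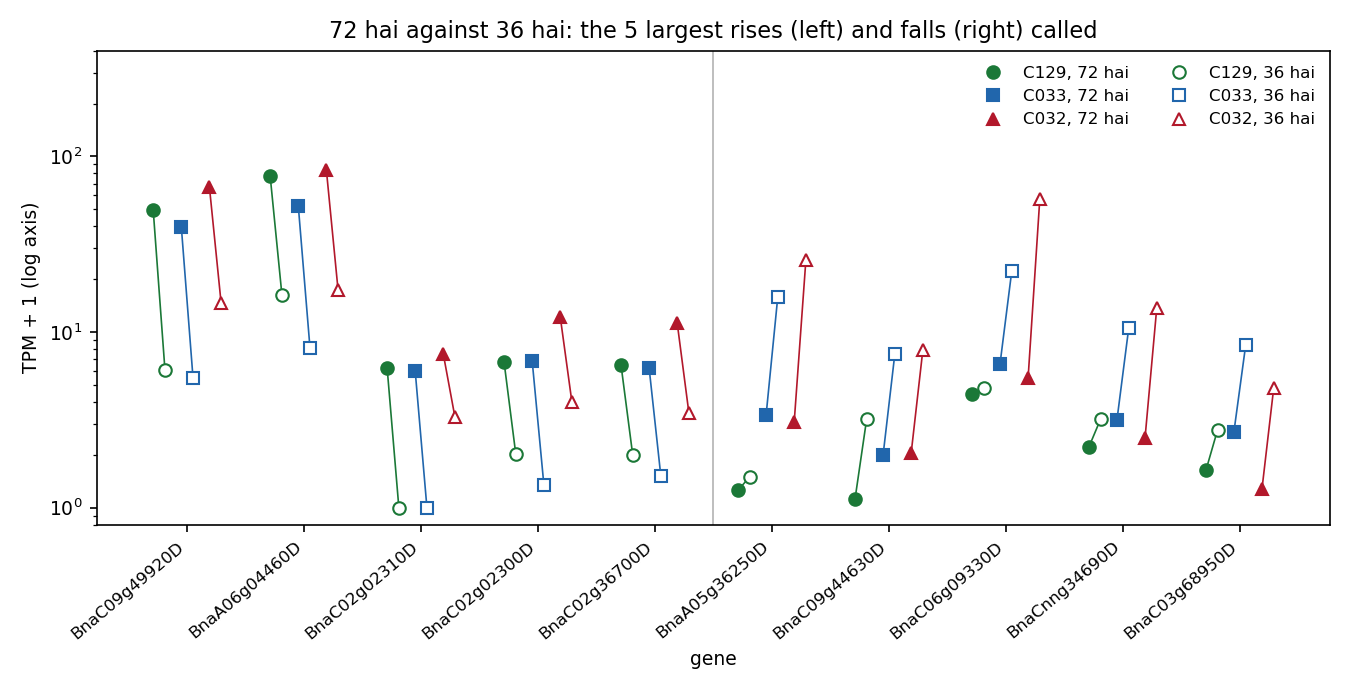
TPM + 1 on a log axis at 72 hai (filled) and 36 hai (open) in C129, C033 and C032 for the 5 genes with the largest called rises (left of the line) and the 5 with the largest called falls (right). BnaC09g49920D stands at 38.8 to 66.4 TPM at 72 hai and at 4.498 to 13.7 TPM at 36 hai, and BnaA05g36250D at 2.06 TPM at 72 hai and 24.7 TPM at 36 hai in C032.

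The accessions differed in the level of some genes over the whole course. The rule is the same in each accession and does not use their difference. It does limit the values of each time except 2 hai. These limits did not weigh alike, since C032 at 12 hai was the nearest limit for 232 of the 291 genes. The shares of called genes are therefore not independent of the rule, and for each pair of accessions they describe the chosen genes only. The difference between accessions was tested with limma over the same 53233 genes with the 5 times serving as replicates and time as a second term. The 5 times are not independent samples of an accession. The p-values measure how evenly a difference held over the times, and accession and seed lot cannot be told apart. Against C032, 5 of the 291 genes (1.72%) were higher in C129, against 4.47% of all genes tested, and 28 (9.62%) were lower, against 2.52%. The median log2 difference was -0.37, against 0.26 over all genes. With median-of-ratios factors 1 was higher and 63 lower, against 1487 and 1904 of the 52506 genes tested. With coding genes rescaled 1 was higher and 33 lower, against 1941 and 1497 of 52836. The count of lower genes was 11 without the 12 hai libraries and 55 without those of 72 hai, against 1108 of 52272 and 1398 of 47538. That of higher genes was 1 without 0 hai and 1 without 2 hai, against 2241 of 52737 and 2321 of 52729. In dry seed and at 2 hai alone, with 2 residual degrees of freedom, 9 were higher and 29 lower, against 2800 and 1078 of 36298.

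Against C033, 10 genes (3.44%) were higher in C129, against 4.27% of all genes tested, and 5 (1.72%) were lower, against 1.68%. This balance turned with the scaling. With median-of-ratios factors, which moved the median over all genes from 0.36 to 0.01, 3 were higher and 16 lower, against 982 and 1399 of 52506. With coding genes rescaled 6 were higher and 11 lower, against 1470 and 1096 of 52836. The count of lower genes was 2 without 12 hai and 14 without 72 hai, against 832 of 52272 and 908 of 47538. In C033 against C032, 3 genes (1.03%) were higher, against 2.29%, and 15 (5.15%) were lower, against 3.14%. Either other scaling gave 4 higher and 10 lower, and 23 were lower without 72 hai, against 1788 of 47538 genes tested. Over all genes tested 1532 were higher and 1429 lower with median-of-ratios factors, and 1428 higher and 1460 lower with coding genes rescaled. In any pair 48 of the 291 genes were called, a count not made over all genes tested, so nothing is read from it. In limma without time as a term none of the 291 was called in any pair, and 0, 1 and 1 had an unadjusted p under 0.05 in C129 against C032, C129 against C033 and C033 against C032. For C129 against C032 this model called 1292 higher and 730 lower of all 53233 genes tested. The fall over time that the rule requires enters the residual of this model. The absence of calls is thus in part set by the choice of genes, and nothing is read from it.

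BnaC01g35900D differed most. It had 1484, 1419, 252, 31.3 and 34.8 TPM at 0, 2, 12, 36 and 72 hai in C129, 58.4, 111, 20.1, 1.98 and 1.94 TPM in C033 and 1622, 1669.8, 719.8, 36.0 and 15.1 TPM in C032. At each time C033 was the lowest of the 3. The log2 difference was 3.79 ± 0.32 for C129 against C033 and -3.97 ± 0.32 for C033 against C032 (SE, limma, adjusted p = 3.9e-06 and 1.9e-06), and both calls held under every setting but the model without time. The genes beside it were low in C033 as well. Of the 12 coding genes among the 10 on each side that averaged at least 1 TPM in C129 and in C032, 8 averaged at most 50% of both in C033, against 3.77% of all such coding genes, a comparison chosen after the values were seen. Among them were BnaC01g35930D, with means over the 5 times of 0.0252 TPM in C033 against 13.1 TPM in C129 and 11.8 TPM in C032, and BnaC01g35910D, with 4.86 against 45.01 and 31.8 TPM. BnaA01g28600D on chromosome A01, another of the 12 highest genes, showed the opposite. It had 766 TPM in C129, 1757 TPM in C033 and 805 TPM in C032 in dry seed, and was lower in C129 than in C033 by a log2 difference of -1.06 ± 0.24 (SE, limma, adjusted p = 0.0037), a call lost without 12 hai, where the difference was no longer beyond 1 (-0.87). The sum of both genes in dry seed was 2250.0 TPM in C129, 1815 TPM in C033 and 2427 TPM in C032. Whether the 2 are copies of one another cannot be told from the annotation at hand.

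BnaA05g36250D was low in C129. It had 252, 230.4, 27.9, 0.498 and 0.255 TPM at 0, 2, 12, 36 and 72 hai in C129, 861, 886, 244, 14.9 and 2.37 TPM in C033 and 1432, 1727, 589.6, 24.7 and 2.06 TPM in C032. The log2 difference was -3.03 ± 0.36 for C129 against C032 and -2.32 ± 0.36 for C129 against C033 (SE, limma, adjusted p = 7.5e-05 and 5.7e-04), with C129 lowest at each time. BnaC06g23840D was high in C032, with 108, 102, 23.4, 0.155 and 0.527 TPM in C129, 80.8, 70.3, 25.3, 0.181 and 0.403 TPM in C033 and 374, 366, 162, 8.62 and 1.27 TPM in C032. Its log2 difference was -1.996 ± 0.30 for C129 against C032 and -2.18 ± 0.30 for C033 against C032 (SE, limma, adjusted p = 3.8e-04 and 2.3e-04). BnaC08g37510D had the same direction in C129 against C032 (-1.67), and BnaCnng57830D was low in C033, with 608 TPM in C129, 172 TPM in C033 and 847 TPM in C032 in dry seed. These calls held under every setting but the model without time.

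BnaC03g00100D was low in C032. It had 128, 121, 23.0, 0.756 and 2.48 TPM in C129, 125, 119, 37.9, 0.667 and 1.12 TPM in C033 and 40.5, 29.1, 9.73, 0 and 0 TPM in C032, and log2 differences of 1.48 ± 0.20 for C129 against C032 and 1.46 ± 0.20 for C033 against C032 (SE, limma, adjusted p = 6.5e-05 and 9.1e-05). Here too the neighbours moved with it: of 13 coding genes beside it that averaged at least 1 TPM in C129 and C033, 10 averaged at most 50% of both in C032, against 3.35% of all such genes. BnaA02g09240D was also low in C032, with 111 TPM in C129, 118 TPM in C033 and 26.6 TPM in C032 in dry seed. Its log2 difference was 1.03 for C129 against C032 and 1.38 for C033 against C032. The first of these calls was lost without 0 hai (adjusted p = 0.07), without 2 hai (0.063) and under both other scalings (0.084 with median-of-ratios factors), and the second held under every setting but the model without time. Beside it 3 of 14 such genes were low in C032. Beside the other genes with large accession differences at most 3 were low. Each count took only the accession in which the gene itself was lowest. BnaC06g23840D, BnaC08g37510D and BnaA04g28570D were called lower in both other accessions than in C032, and BnaA01g28600D was highest in C033. For these genes the count cannot show neighbours that share the high level, and nothing is read from it. In C129 it was 0 of 11 beside BnaA01g28600D, 0 of 10 beside BnaC08g37510D and 0 of 7 beside BnaA09g41910D. In C033 it was 0 of 8 beside BnaC06g23840D, 0 of 5 beside BnaA04g05010D, 1 of 9 beside BnaA05g23860D and 1 of 4 beside BnaC03g15510D. Also in C033 it was 2 of 9 beside BnaC03g48460D and 3 of 9 beside BnaA04g28570D. In C032 it was 0 of 2 beside BnaC03g68950D.

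Differences of C129 to C033 included BnaC03g48460D, which had 101 TPM in C129, 26.7 TPM in C033 and 98.1 TPM in C032 in dry seed and a log2 difference of 1.67 ± 0.20 (SE, limma, adjusted p = 3.5e-05). BnaC03g15510D and BnaA05g23860D were also higher in C129, by 1.54 and 1.48 on the log2 scale, and BnaA09g41910D and BnaCnng77870D were lower, by log2 differences of -1.29 and -1.10. BnaA05g23860D lost its call with median-of-ratios factors (adjusted p = 0.11), and BnaCnng77870D with 5 TPM added (-0.99) and without 12 hai (-0.997), where the difference was just short of 1. BnaA04g28570D, with 23.9 TPM in C129, 18.5 TPM in C033 and 133 TPM in C032 in dry seed, was lower in C129 and in C033 than in C032 by log2 differences of -1.60 and -2.15 (limma, adjusted p = 0.036 and 0.017), but lost both calls without 0 hai, without 2 hai or without 12 hai (adjusted p between 0.054 and 0.14), and the first also without 36 hai (0.059) or without C033 (0.15). BnaC03g68950D and BnaA04g05010D were higher in C129 than in C032 by 1.01 each on the log2 scale calls that rested on the settings. BnaC03g68950D lost it with 0.1 TPM added, with no filter, under both other scalings, without C033 and without 0, 2 or 12 hai (adjusted p between 0.059 and 0.21). BnaA04g05010D came just short of a log2 difference of 1 without 0 hai (0.99) and without 2 hai (0.95), and was at 0.77 without 72 hai, 0.84 with 5 TPM added, 0.87 with coding genes rescaled and 0.65 with median-of-ratios factors (adjusted p = 0.076).

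Of the 11 annotated genes 3 were called between accessions. In C129 against C032, 9.62% of the 291 genes and 2.52% of all genes tested were called lower. Nothing is read from so few genes, which are those with a match at hand or a name in the study. The 3 calls were not followed under the other settings, and that of BnaC06g05390D lies close to both thresholds. BnaC01g20320D (HSP21) was lower in C129 than in C032 by a log2 difference of -1.25 ± 0.27 (SE, limma, adjusted p = 0.0045), BnaC06g05390D (HSP26.5) by -1.03 ± 0.36 (adjusted p = 0.048) and BnaC01g06610D by -1.07 ± 0.27 (adjusted p = 0.011). BnaC02g04180D (HSP17.6) had -0.87 ± 0.26 (adjusted p = 0.023) and did not pass the fold threshold. In these genes C129 was below C032 at 0, 2 and 12 hai. Depth at these genes was sufficient in dry seed, where every one of the 291 rested on at least 35.5 read equivalents in each library, but at 36 and 72 hai between 72 and 128 of them were below 1 TPM in a library.

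**Figure D5:**
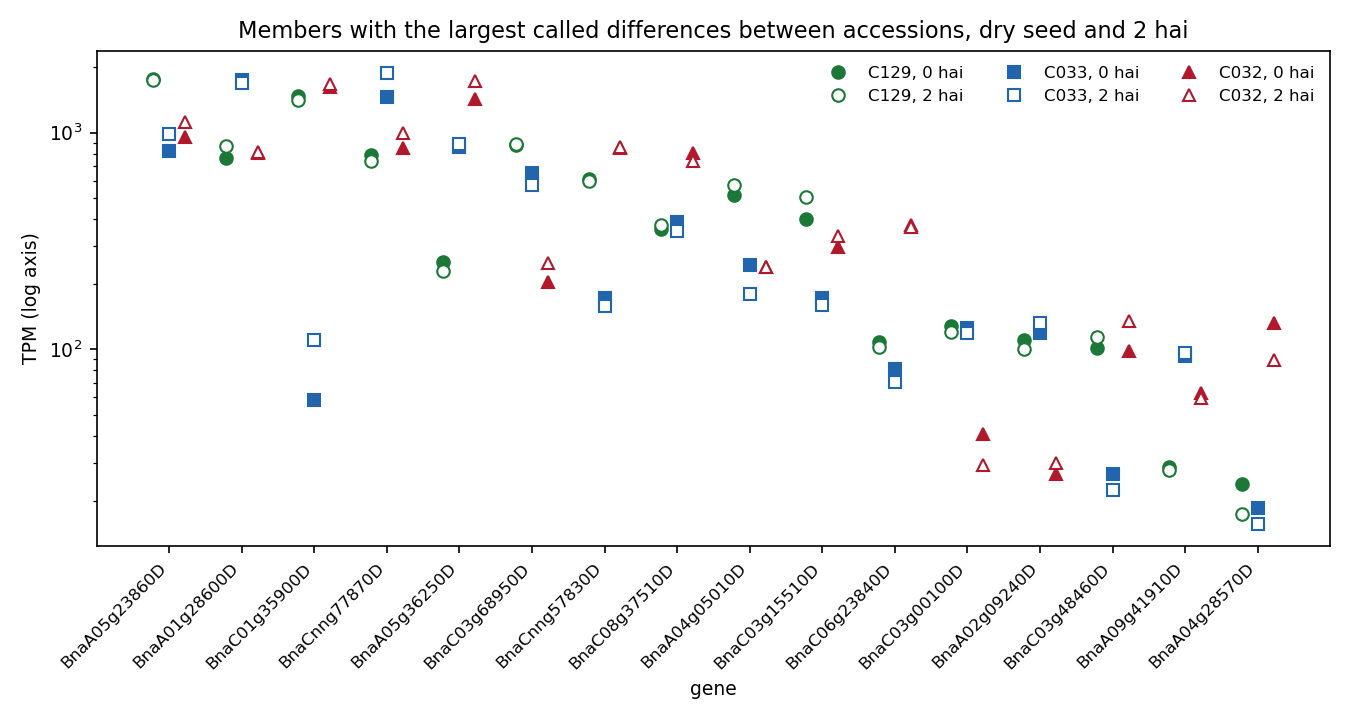
TPM on a log axis at 0 hai (filled) and 2 hai (open) in C129, C033 and C032 for the 16 genes with the largest called differences between accessions, ordered by mean dry level. The 2 times lie close together within an accession, while BnaC01g35900D is at 58.4 TPM in dry C033 seeds and at 1484 TPM in C129 and 1622 TPM in C032.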

How the data were processed

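RNA of 15 libraries (3 accessions at 5 times) was read on a HiSeq2000 as paired ends of 100 bp. The authors used HISAT for mapping, on assembly AST_PRJEB5043_v1, and quantified genes with StringTie (versions not given in the sources used here). The authors' deposited TPM is scaled over coding and non-coding rows together, so that the non-coding share of a library moves it. The coverage signal, as deposited by the authors, is mean read depth per gene. Coverage served only for read equivalents (coverage times length over a read length of 100), which summed to 19.4 to 41.7 M per library over coding genes. Non-coding rows (4236) were left out. The members and gene lists were chosen with earlier results of these data known.

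Differences were tested with limma 3.58.1 (R 4.3.3, with trend and robust set) on log2(TPM + 1). Coding genes reaching 1 TPM in 3 or more libraries entered. The model held time and accession, which left 8 residual degrees of freedom, with Benjamini-Hochberg adjustment over all genes tested. Fold changes are on the log2(TPM + 1) scale, which understates the change of low genes. A time particular to 1 accession counts as noise in such a model. On simulated data for 72 against 36 hai, 79 of 100 genes changed by a log2 of 1.5 and 95 of 100 changed by 2 were recovered, with 10 false calls among 49535 genes. Recovery was not worked out for the 291 genes by themselves. Their medians at 36 hai were low, at 1.35, 1.22 and 2.45 TPM in C129, C033 and C032, so these rates are not taken to hold for them. Shares of the dry level, gene features and orders of accessions were described in Python 3.11.15 (numpy 2.4.6, pandas 2.3.3, scipy 1.17.1, matplotlib 3.10.9).

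Named genes are the 12 highest in dry seed, those in a gene list or named by locus in the study, the 5 largest called rises and falls from 36 to 72 hai, the 4 largest called differences in each direction for each pair of accessions, the 4 lowest and 4 highest at 2 hai, and the 3 genes on each side of the rule's limits. Genes beside the accession differences and a few others were named after their values were seen. Arabidopsis matches came from the part of a supplementary table at hand, and Arabidopsis symbols were recalled, not looked up. A RefSeq gene table of another assembly matched 18 members by symbol and added no names. Alternatives were other pseudocounts, filters, scalings and models, and each accession or time left out. Metabolite, hormone and quantitative PCR data were not analysed here.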

Additional observations from a re-analysis of the deposited data

Results flagged for a closer look

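Between 36 and 72 hai the median over the 291 genes went opposite ways in C129 and C032. The rule limits the values of both times, and many were near 0. At 36 and 72 hai 124 and 99 genes were under 1 TPM in C129, and 72 and 120 in C032. The median difference of log2(TPM + 1), 72 minus 36 hai, was 0.25 in C129 and -0.51 in C032, with 0.05 in C033. In C129 203 genes were higher and 80 lower at 72 hai, in C033 152 and 127, and in C032 84 and 197. The summed level of the genes was 1527 TPM at 72 hai and 1058 TPM at 36 hai in C129, 1018 and 835 TPM in C033 and 1195 and 1732 TPM in C032. With median-of-ratios factors the medians were 0.23, -0.02 and -0.66 in C129, C033 and C032. With 1 library for each accession and time the difference between accessions was not tested. The 8515 other stored genes had medians of -0.21, 0.03 and 0.11 in C129, C033 and C032 on TPM, and of -0.15, -0.19 and -0.27 with median-of-ratios factors, so that their order across accessions turned with the scaling.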

How the results depend on the processing

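The number of genes meeting the rule, 291, was 842 with median-of-ratios scaling, 28 with a limit of 25% at 12 hai, and between 313 and 689 when each accession was left out in turn, the highest without C032. Under the other alternatives it was between 227 and 374. The median share left at 2 hai was 94.2% in C129 and 90.5% in C032 with median-of-ratios scaling, and 92.9% in C032 with coding genes rescaled, and the share left at 12 hai in C032 was 24.6% with median-of-ratios scaling. For 72 against 36 hai, a pseudocount of 5 TPM gave 3 higher and 1 lower, a pseudocount of 0.1 TPM 38 lower, median-of-ratios scaling 23 lower, coding genes rescaled 25 lower and no second term 5 lower. With an accession left out there were 20 to 29 higher and 3 to 37 lower. For C129 against C032, 5 TPM gave 2 higher and 16 lower, median-of-ratios scaling 1 higher and 63 lower, coding genes rescaled 1 higher, no second term 0 and 0, and 0 and 2 hai only 9 higher. With an accession or time left out there were 1 to 6 higher and 11 to 55 lower. For C129 against C033, 5 TPM gave 6 higher and 2 lower, 0.1 TPM 9 lower, median-of-ratios scaling 3 higher and 16 lower, coding genes rescaled 6 higher and 11 lower, no second term 0 and 0, and 0 and 2 hai only 16 higher and 11 lower. With one left out there were 7 to 10 higher and 2 to 14 lower. For C033 against C032, 5 TPM gave 9 lower, 0.1 TPM 28 lower, no second term 0 and 0, and 0 and 2 hai only 6 higher. With one left out there were 2 to 4 higher and 10 to 23 lower. The counts of this paragraph are given without those over all genes tested and show only how far the settings moved them. The cause of these shifts was not tested. Of 33 called differences of named genes none turned its direction under any alternative, and 15 kept their call under each one but the model without the second term, which left 7 of 33. Accession served as a block in the model for 72 against 36 hai, and time in those between accessions, and the values with no second term are those without it. Between accessions the fall over time that the rule requires then enters the residual, so the loss of these calls is in part set by the choice of genes. There were no replicate numbers to pair, with 1 library for each accession and time.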
